A study of Homo sapiens with 12 samples.

Results

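The 8 genes TCP1, CCT2, CCT3, CCT4, CCT5, CCT6A, CCT7 and CCT8, which encode the subunits of the cytosolic chaperonin CCT (also called TRiC), were followed through RNA-sequencing libraries of human embryonic stem cells (hESCs) with and without UBQLN1. They were chosen by name, as the genes of the 8 subunits that form each ring, and not by any measured value. Earlier results of these data were known when that choice was made. All 8 were among the 28278 rows of the counts table, and all 8 passed the filter on low counts that left 15916 tested genes. The cells were of the hESC line WA26, and 4 groups of 2 libraries each were measured. The groups were wild-type cells at normal O2 without treatment (WT), cells in which UBQLN1 had been disrupted by CRISPR/Cas9 under the same conditions (KO), KO cells at 5% O2, and KO cells given N-acetylcysteine (NAC), a cell-permeable antioxidant. Low oxygen and NAC were both used in the study to lower the oxidative load of the KO cells, which is the question the treated groups address. The paper's scheme gives the length of both treatments in passages, while its text gives that of the RNA-seq cultures under the oxygen conditions in hours. The treated groups may therefore differ in duration as well as in treatment, and these cannot be told apart. The WT libraries at 5% O2 and with NAC were not analysed here, so each treatment could be compared only within KO cells. Each genotype was represented in the study by a pair of clones of 1 line, and the labels do not give the clone behind a library or say whether the KO libraries without NAC received a vehicle.

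CCT is a barrel of a pair of stacked rings, each built from 1 copy of every subunit. Newly made proteins enter its cavity, a lid closes with ATP hydrolysis and the protein folds inside, and actin and tubulin are its best-known clients. The cochaperone prefoldin hands actin and tubulin to the ring, and phosducin-like proteins help it fold other clients. UBQLN1 is a shuttle factor that binds ubiquitylated proteins and the proteasome, so both systems belong to the upkeep of cytosolic proteins.

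Library totals ran from 31236968 to 41639350 counts. UBQLN1, the targeted gene, had 7382 and 7591 counts in the 2 WT libraries and 1476 to 2392 counts in the 6 KO libraries, and was lower in KO than in WT (log2 fold change -2.29, SE 0.12, adjusted p = 2.51848e-06 by edgeR's quasi-likelihood test). By the same test its remaining mRNA was higher with NAC than in KO (0.38, SE 0.12, adjusted p = 0.0196). At 5% O2 against KO it did not pass (0.22, SE 0.12, adjusted p = 0.283). All 8 markers of undifferentiated hESCs, among them POU5F1 and SOX2, were detected in every group. Their summed level was 6548 to 6607 CPM (counts scaled to library size, with TMM factors) in WT, 6265 to 6491 in KO, 5975 to 5979 at 5% O2 and 5059 to 5685 with NAC. Most of the lower sums with NAC and at 5% O2 lay in DNMT3B, which was at 2553 and 2455 CPM in KO, 2180 and 2345 CPM at 5% O2 and 1136 and 1418 CPM with NAC. The other 7 markers summed to 3931 and 4091 CPM in WT, 3938 and 3810 in KO, 3800 and 3629 at 5% O2 and 4549 and 3641 with NAC, so that KO and NAC overlapped. The 3 ectoderm markers summed to 5.03 to 8.09 CPM in WT, 9.21 to 11.1 in KO, 5.03 to 5.61 at 5% O2 and 2.92 to 7.85 with NAC. The 3 endoderm markers summed to at most 0.87 CPM and the 3 mesoderm markers to at most 5.74 CPM in any library. NAC library 1 stood apart from the other 7 libraries in fibroblast markers. The decorin gene DCN was at 47.2 CPM there, COL3A1 at 29.1 and LUM at 3.86, whereas DCN and LUM had 0 counts and COL3A1 was at most at 0.21 CPM in the other 7. The 7 mesenchymal markers together were at 935 CPM in that library, 546 CPM in NAC library 2 and 511 to 627 CPM in the other 6. Results of the members and lists with NAC are therefore also given without NAC library 1, those of the lists mostly as medians.

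The genes lie on 7 chromosomes of the hg38 assembly (GRCh38.p14): TCP1 at chr6:159778498-159789602, CCT2 at chr12:69585459-69601570, CCT3 at chr1:156308968-156338292, CCT4 at chr2:61868085-61888671, CCT5 at chr5:10249921-10266412, CCT6A at chr7:56051765-56063989, CCT7 at chr2:73234308-73253005 and CCT8 at chr21:29056326-29073648. The reference transcripts have 11 to 16 exons and 1847 to 3293 bases. Some of these loci share bases with other genes, and the counting is stated to have used default settings of featureCounts, which ignore strand and leave out reads that overlap several genes. Over whole genes, introns included, TCP1 shares 615 bases with ACAT2 on the opposite strand, and the snoRNA genes SNORA20 and SNORA29 lie inside it. CCT3 shares 9682 bases with TSACC on the opposite strand, and CCT6A holds SNORA22B and SNORA15. TSACC had 23 to 65 counts in any library, so few reads were assigned to it. CCT6A has the pseudogenes CCT6P1, with 79 to 158 counts per library, and CCT6P3, with 8 to 24, against 18828 to 28350 for CCT6A itself.

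Promoters of 7 of the 8 genes were found in the RefSeq table of GRCh38.p14, which holds 250 bases before and 50 bases after each start. CCT6A had no entry, and the CCT5 entry begins inside that gene, downstream of its annotated start. The 160 bases before the start are shown for CCT2 and CCT4, the members with the highest log2 fold changes with NAC, and for TCP1, the member with the lowest, each on the strand of its gene and with CCAAT boxes (CCAAT or its complement ATTGG) in capitals.
CCT2, chr12:69585299-69585458, plus strand: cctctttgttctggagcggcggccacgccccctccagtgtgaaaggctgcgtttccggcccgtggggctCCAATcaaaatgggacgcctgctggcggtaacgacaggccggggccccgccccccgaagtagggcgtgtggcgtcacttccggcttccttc
CCT4, chr2:61888657-61888816, minus strand: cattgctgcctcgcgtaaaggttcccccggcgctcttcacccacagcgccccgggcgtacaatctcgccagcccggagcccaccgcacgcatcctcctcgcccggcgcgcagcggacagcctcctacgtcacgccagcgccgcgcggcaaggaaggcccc
TCP1, chr6:159789603-159789762, minus strand: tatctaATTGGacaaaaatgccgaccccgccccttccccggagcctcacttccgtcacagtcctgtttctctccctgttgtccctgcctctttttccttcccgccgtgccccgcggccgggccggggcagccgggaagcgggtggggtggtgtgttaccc
CCAAT, searched on both strands, was found in the 300-base entries of CCT2, CCT3, CCT8 and TCP1, that is in 4 of 7, and in 34.6% of all 35116 promoters of the table. In CCT2 it lay at bases -91 to -87 from the start and in TCP1 at -154 to -150, CCT3 held it at -75 to -71 and again at -34 to -30, and CCT8 at -63 to -59. The letters of a pair of heat shock units facing each other, GAANNTTC, occurred in TCP1 (6.8% of all promoters) and those facing away, TTCNNGAA, in CCT4 after the start (7.7%). A run of 3 such units in alternation, which contains both of those pairs, was in 0 of 7 (0.5% of all promoters). The letters ACGTG, a form of the core of the hypoxia response element, and the E-box CACGTG, which contains them, were each in 0 of 7 (21.4% and 7.3% of all promoters). The other form of that core, GCGTG, was not searched for. It or its complement CACGC occurs in the CCT2 and CCT4 stretches shown above. The antioxidant response letters TGACNNNGC were found in CCT4 alone of the 7 (13.3%). A match here is of letters only.

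Per length, the subunit mRNAs kept nearly the same order in all 8 libraries. On the RPKM scale (CPM divided by the length of the reference transcript in kilobases), CCT3 was highest in 7 of 8 libraries and CCT7 in the remaining one, WT library 2. CCT4 was lowest and TCP1 second lowest in all 8. The lengths were not corrected for bases shared with other genes, such as the 615 of TCP1 with ACAT2 and the 9682 of CCT3 with TSACC. These overlaps are of whole genes, introns included, so how many of the bases are counted is not known. Reads there may be left out of the counts, so the places and shares of TCP1 and CCT3 may be understated. CCT3 averaged 371 ± 7.61 RPKM in WT and CCT7 371 ± 12.9 (SD, n = 2), so the top pair could not be ordered there. CCT2 followed at 270 ± 20.1, CCT5 at 237 ± 23.1, CCT8 at 223 ± 21.7, CCT6A at 206 ± 17.1, TCP1 at 178 ± 13.7 and CCT4 at 147 ± 2.95 RPKM. Neighbouring means from CCT2 down to TCP1 differed by less than the sum of their SDs, whereas the step from CCT7 to CCT2 and that from TCP1 to CCT4 exceeded it. Although each ring holds 1 copy of every subunit, the highest mRNA was 2.40 to 2.93 times the lowest within a library, and the coefficient of variation over the 8 genes was 30.5% to 36.0%. Together the 8 genes took 0.400% to 0.599% of all counts of a library.

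The summed level of the 8 mRNAs was lowest in KO, higher in WT, higher still at 5% O2 and highest with NAC. It was 4539 and 4324 CPM in the WT libraries and 3959 and 3822 CPM in KO. At 5% O2 it was 5008 and 4837 CPM, and with NAC 6378 and 5864 CPM. None of the 4 groups overlapped with another in this sum. Because these are bulk libraries, fewer cells of a type and less RNA per cell cannot be told apart.

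**Figure D1:**
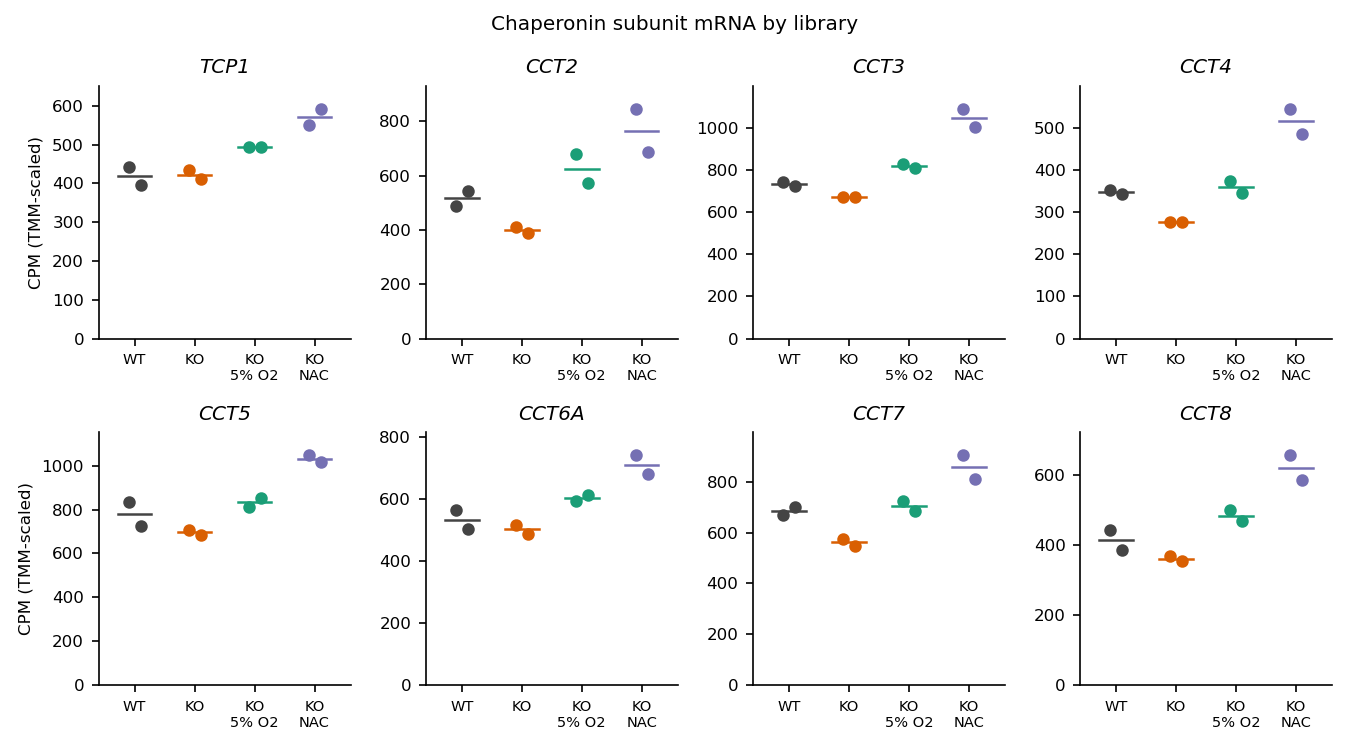
CPM (scaled by TMM, linear axis from 0) of each subunit in the 8 libraries, 2 per group; WT and KO are at normal O2, dots are libraries with replicate 1 left of replicate 2, and lines are means of 2. The NAC dots lie above those of every other group in all 8 panels, while for TCP1 and CCT6A the WT and KO dots overlap.

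Whether loss of UBQLN1 changed the subunit mRNAs was asked by setting KO against WT at normal O2. No subunit passed the test, and 7 of 8 estimates were below 0. CCT2, the beta subunit, was at 489 and 544 CPM in WT and at 409 and 389 CPM in KO. CCT4, the delta subunit, was at 354 and 344 CPM in WT and at 278 and 276 CPM in KO. CCT7, the eta subunit, was at 669 and 702 CPM in WT and at 576 and 546 CPM in KO. In these 3 genes both KO libraries were below both WT libraries. Their log2 fold changes were -0.37 (95% confidence interval -0.62 to -0.12) for CCT2, -0.33 (-0.52 to -0.15) for CCT4 and -0.29 (-0.47 to -0.11) for CCT7, with adjusted p = 0.120, 0.0722 and 0.103 by edgeR's quasi-likelihood test. CCT3, CCT5 and CCT8 were also lower in both KO libraries, with estimates of -0.13, -0.16 and -0.20. When each library was left out, the estimate of CCT5 ran from -0.26 to -0.06 and that of CCT8 from -0.29 to -0.09. TCP1, the alpha subunit that gave the complex its other name, was at 442 and 396 CPM in WT and 434 and 410 CPM in KO, so the groups overlapped (0.01, -0.17 to 0.19), as they did for CCT6A (-0.09, -0.28 to 0.10). Thus 6 of 8 members had groups that did not overlap, where 54.7% of all tested genes had such groups in this comparison.

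At an adjusted p under 0.05 edgeR thus called 0 of 8 members lower, where 0.622% of all tested genes were lower, and 0 of 8 higher, where 1.34% were higher. At an unadjusted p under 0.05 it had 3 lower, CCT2, CCT4 and CCT7, and DESeq2 called 3 lower at its adjusted p, where it called 1.88% of genes lower. The median of the 8 was -0.18, beside -0.0024 over all tested genes, and it was -0.10 without WT library 1 and -0.26 without WT library 2. Without NAC library 1, or without NAC library 2, edgeR called 3 lower, beside 2.95% and 2.89% of all genes. These libraries are in neither group compared, and leaving 1 out changes the estimate of spread, the filter and the scaling.

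With NAC, all 8 subunits were higher than in KO cells without it, by 1.35-fold to 1.92-fold. CCT2 rose most on the log2 scale. It was at 409 and 389 CPM in KO and at 846 and 686 CPM with NAC, and both treated libraries lay above both controls although they differed from each other (log2 fold change 0.94, SE 0.11, adjusted p = 6.15143e-05 by edgeR's quasi-likelihood test). CCT4, which together with CCT5, CCT2 and TCP1 forms the side of the ring with high affinity for ATP, went from 278 and 276 CPM to 545 and 486 CPM. Its libraries did not overlap between groups (0.90, SE 0.09, adjusted p = 2.0403e-05). CCT5, the epsilon subunit, was at 707 and 686 CPM in KO and 1047 and 1019 CPM with NAC, a tight pair in each group (0.57, SE 0.08, adjusted p = 0.000216). TCP1 was at 434 and 410 CPM in KO and 551 and 592 CPM with NAC, the one subunit with its higher value in NAC library 2 (0.44, SE 0.08, adjusted p = 0.00125). Along this side of the ring the log2 fold changes therefore ran from 0.44 to 0.94.

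On the side with low affinity for ATP, formed by CCT3, CCT6A, CCT7 and CCT8, they ran from 0.50 to 0.78, within the range of the other side. CCT8, the theta subunit, was at 367 and 354 CPM in KO and at 655 and 585 CPM with NAC, well apart (0.78, SE 0.09, adjusted p = 5.66381e-05). CCT3, the gamma subunit, was at 671 and 673 CPM in KO and at 1090 and 1005 CPM with NAC, again with no overlap (0.64, SE 0.08, adjusted p = 5.32632e-05). CCT7 was at 576 and 546 CPM in KO and at 903 and 811 CPM with NAC (0.61, SE 0.08, adjusted p = 0.000126). CCT6A, the zeta subunit, was at 515 and 488 CPM in KO and at 740 and 679 CPM with NAC (0.50, SE 0.09, adjusted p = 0.000602), and neither pair overlapped.

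Among all tested genes 23.8% were higher with NAC than without and 20.8% lower, so 8 of 8 members higher stands against a background in which a large share of genes was called. The groups did not overlap for 8 of 8 members, nor for 70.2% of all tested genes. The median log2 fold change of the members was 0.63, beside 0.023 over all tested genes. Without NAC library 1, the library with fibroblast markers, 8 of 8 were still called, with log2 fold changes from 0.43 (CCT6A) to 0.81 (CCT4) and a median of 0.56. The summed hESC markers were lower with NAC, at 5059 to 5685 CPM against 6265 to 6491 CPM in KO, mostly through DNMT3B, and their part in the result was not tested. No member reached a log2 fold change of 1, the limit that the methods of the study set beside an unadjusted p under 0.05.

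The NAC comparison also followed base composition across all genes. Over the 15023 tested genes with a transcript length and GC content, 94.4% of those tested, Spearman's rho between GC content and the log2 fold change with NAC was -0.50, genes not being independent replicates. The subunit transcripts have a GC content of 41.5% (CCT8) to 51.6% (CCT7), against a median of 49.0%, and 6 of 8 lie at 44.5% or below. The 751 genes in the interval of GC content with a median of 42.7% had a median log2 fold change of 0.29, and the 751 genes in that with a median of 51.6% had one of -0.10. CCT2 and CCT4 lay above the upper quartile of the first of these and CCT7 above that of the second, while TCP1 and CCT6A lay within the quartiles of the first. CCT3, CCT5 and CCT8 belong to other intervals and lay above the upper quartiles of those (0.36, 0.52 and 0.66).

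The libraries were then refitted with the smooth dependence of each on GC content and transcript length taken out (trend-removed fit), and 5 of 8 members were higher with NAC, beside 14% of the genes in that fit. These were CCT3 (log2 fold change 0.50, adjusted p = 0.000466), CCT7 (0.48, 0.000893), CCT4 (0.44, 0.00111), CCT2 (0.38, 0.0147) and CCT5 (0.36, 0.00394), all by edgeR's quasi-likelihood test. CCT8 (0.14, adjusted p = 0.171), CCT6A (0.05, 0.625) and TCP1 (-0.06, 0.616) were no longer called, and for TCP1 the estimate changed sign. The median of the 8 fell to 0.37. The part of base composition in the counts was not tested beyond this.

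**Figure D2:**
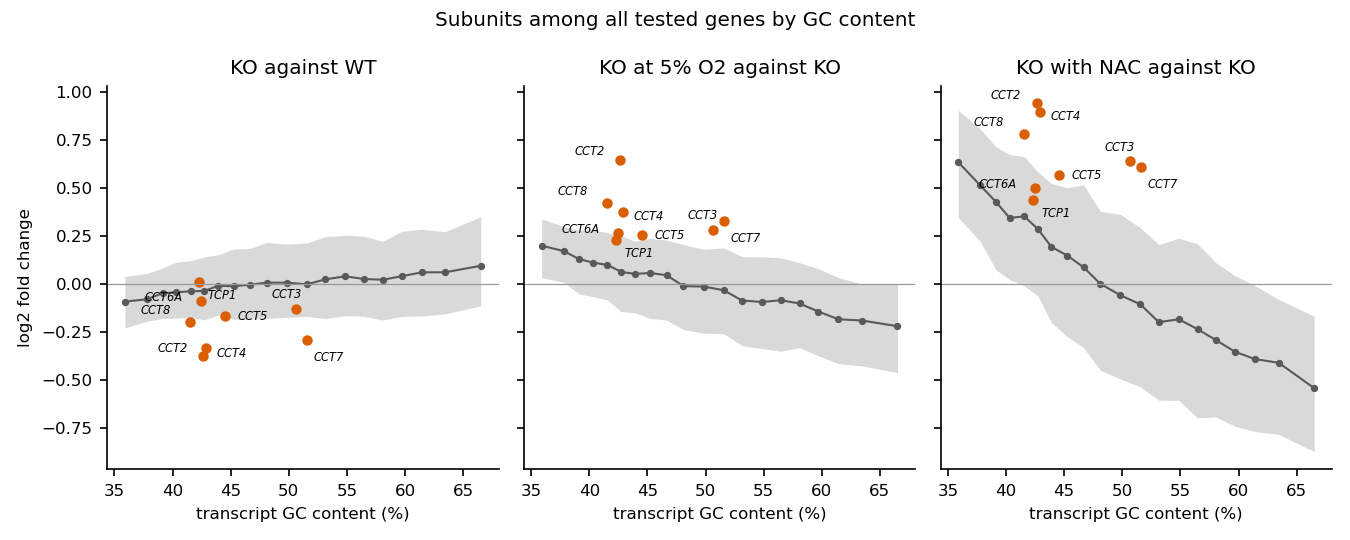
Log2 fold change against transcript GC content (%) in 3 comparisons; grey dots are medians of 20 intervals of 751 or 752 genes each, the band spans the quartiles of the genes in each interval, and orange dots are the 8 subunits. The grey line falls with GC content in the NAC panel, where CCT3 and CCT7 lie above the band and TCP1 and CCT6A inside it.

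At 5% O2 the same 8 mRNAs were again above KO at normal O2 in every library, by smaller amounts, and 5 of 8 passed the test. CCT2 was at 679 and 573 CPM at 5% O2, against 409 and 389 CPM in KO (log2 fold change 0.65, SE 0.11, adjusted p = 0.0109 by edgeR's quasi-likelihood test). CCT8 was at 500 and 467 CPM (0.42, SE 0.09, adjusted p = 0.0232), and CCT4 at 374 and 345 CPM (0.38, SE 0.09, adjusted p = 0.0249). CCT7, at 725 and 684 CPM (0.33, adjusted p = 0.0362), and CCT3, at 829 and 808 CPM (0.28, adjusted p = 0.0429), passed more narrowly. In these 5 genes the lower library at 5% O2 was above the higher KO library.

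The other 3 did not pass, although their groups did not overlap either. CCT6A was at 592 and 613 CPM at 5% O2 (0.26, 95% confidence interval 0.08 to 0.45, adjusted p = 0.0807), CCT5 at 814 and 853 CPM (0.26, 0.08 to 0.44, adjusted p = 0.0800) and TCP1 at 494 CPM in both libraries (0.23, 0.04 to 0.41, adjusted p = 0.115). The background at 5% O2 was 3.68% of tested genes higher and 4.13% lower, and the median of the members was 0.31 beside -0.00025 over all tested genes. Across the genes tested, 60.9% had groups that did not overlap in this comparison. The hESC markers summed to 5975 to 5979 CPM at 5% O2, against 6265 to 6491 CPM in KO, and the sum without DNMT3B was 3629 to 3800 CPM against 3810 to 3938 CPM. The part of these markers was not tested.

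These calls rested on few libraries. Without KO library 1, without KO library 2 or without library 1 at 5% O2, 0 of 8 were called higher, without library 2 at 5% O2 it was 1, and without either WT library, which are not in the groups compared, it was 3. The share of all genes called higher fell as well, from 3.68% to 0.175% without KO library 1, 0.254% without KO library 2, 0.188% and 1.43% without library 1 and 2 at 5% O2, and 2.39% and 2.13% without WT library 1 and 2. The median log2 fold change stayed between 0.29 and 0.34 in these fits. In the trend-removed fit, where 1.1% of genes were higher, 0 of 8 were called and the median was 0.17, with CCT2 at 0.40 (adjusted p = 0.0670). Spearman's rho between GC content and the log2 fold change at 5% O2 was -0.34 across genes, genes not being independent replicates. In that fit all 8 estimates remained above 0.

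**Figure D3:**
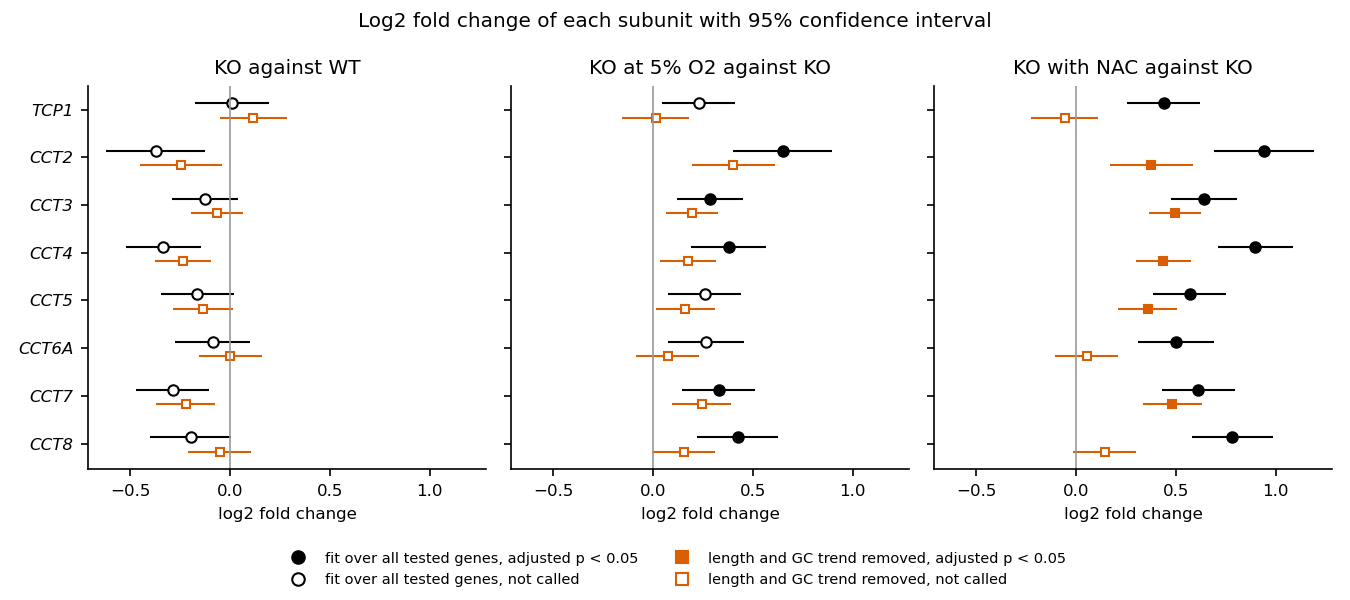
Log2 fold change of each subunit in 3 comparisons with 95% confidence intervals; circles are the fit over all tested genes and squares the trend-removed fit, filled where the adjusted p is under 0.05. All 8 circles are filled with NAC and 5 at 5% O2, while 5 squares are filled with NAC and none at 5% O2 or in KO against WT.

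The NAC and 5% O2 comparisons share the KO control libraries, so the treated groups were also set against each other directly. They may differ in length of treatment too. With NAC, 5 of 8 members were higher than at 5% O2, where 15.5% of all tested genes were higher. CCT4 had the highest log2 fold change, 0.52 (SE 0.09, adjusted p = 0.00146 by edgeR's quasi-likelihood test), followed by CCT8 and CCT3 at 0.36 each, CCT5 at 0.31 and CCT7 at 0.28. CCT2 (0.29, 95% confidence interval 0.04 to 0.54, adjusted p = 0.0741), CCT6A (0.24, 0.05 to 0.42, adjusted p = 0.0598) and TCP1 (0.21, 0.03 to 0.39, adjusted p = 0.0825) did not pass. Without NAC library 1 the median of the 8 was 0.26, beside 0.30 with all libraries, and CCT2 was at 0.13. The median was 0.35 without library 1 at 5% O2 and 0.28 without library 2 at 5% O2. Each of these fits leaves a lone library in a group. With the trend removed, 3 members were higher, CCT3, CCT4 and CCT7, beside 8.41% of genes, and TCP1, CCT2, CCT6A and CCT8 had estimates below 0.

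Against untreated WT cells, KO cells with NAC had all 8 subunits higher, beside 20.6% of tested genes higher. The log2 fold changes ran from 0.32 (CCT7) to 0.59 (CCT8), with a median of 0.48. Without NAC library 1 the median was 0.43, with CCT7 lowest at 0.24. With the trend removed 4 were higher, CCT3, CCT4, CCT5 and CCT7, beside 10.9% of genes. KO cells at 5% O2 did not differ from WT by the test in any subunit, where 1.78% of tested genes were higher. At an unadjusted p under 0.05, 3 of the 8 were higher, TCP1, CCT2 and CCT8, DESeq2 also called 0, and the log2 fold changes ran from 0.04 (CCT7) to 0.28 (CCT2). The order of group means was therefore KO, WT, 5% O2 and NAC for 7 members and WT, KO, 5% O2 and NAC for TCP1, where neither of the first 2 steps passed the test for any subunit.

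The make-up of the subunit mRNAs within a library, which no scaling between libraries can alter, shifted less than the sum. As a share of the summed RPKM of the 8, CCT4 took 6.58% and 6.76% in KO, 6.91% and 6.66% at 5% O2, 7.30% and 7.36% in WT and 7.91% and 7.72% with NAC. The NAC libraries were above all others in this share and the KO and 5% O2 libraries overlapped. TCP1 took 10.4% and 10.2% in KO, more than in any other library, and 8.07% and 9.50% with NAC. The ratio of CCT2 to TCP1 per length was 1.16 in both KO libraries, 1.36 and 1.68 in WT, 1.69 and 1.42 at 5% O2 and 1.88 and 1.42 with NAC. It was lower in KO than in every other library, whereas WT, 5% O2 and NAC overlapped. CCT3 held 18.4% to 19.8% of the sum in every library.

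**Figure D4:**
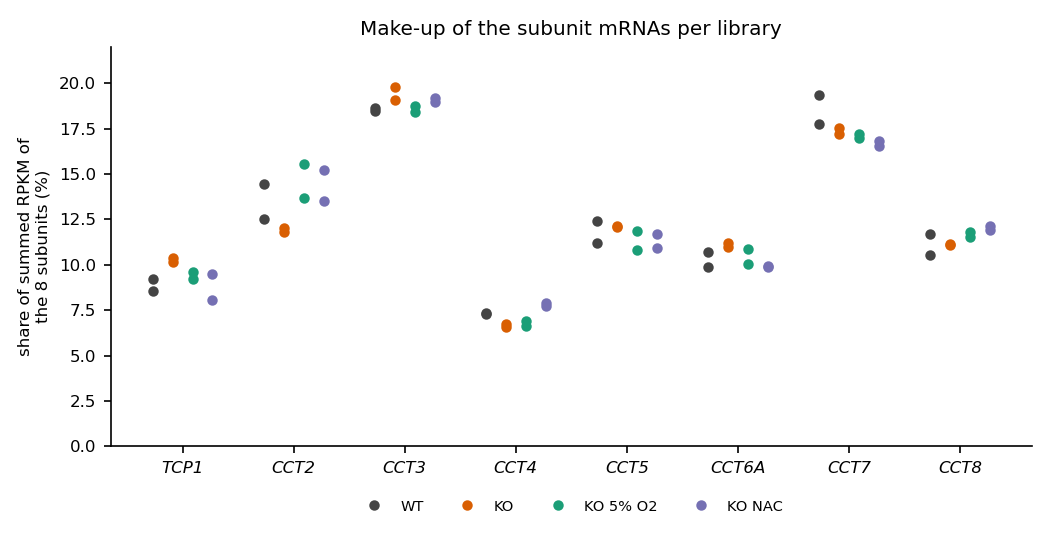
Share of each subunit in the summed RPKM of the 8 subunits (%), 2 dots per group, 1 for each library. CCT3 and CCT7 take the highest shares and CCT4 the lowest in all 4 groups, and the KO dots of TCP1 lie above those of the other groups.

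Over the 8 libraries the subunits followed each other closely. Pearson's r of log2 CPM for the 28 pairs ran from 0.778 to 0.984 with a median of 0.938. Each gene was also set against the mean of the other 7, and r was highest for CCT8 (0.991) and CCT3 (0.989) and lowest for TCP1 (0.889). These points share libraries, depth and group, so the values describe 4 groups of 2 rather than 8 independent conditions. Among 15908 other genes, those whose log2 CPM was most like the mean of the members over the 8 libraries were GLO1 (r = 0.997), which encodes glyoxalase I, RTRAF (0.996), the importin IPO5 (0.996), the DNA end-binding XRCC6 (0.995) and the Rab regulator GDI2 (0.995). GLO1 was at 273 and 253 CPM in WT, 222 and 220 in KO, 324 and 296 at 5% O2 and 461 and 418 with NAC. This is the order of groups of the subunits other than TCP1, and GLO1 was picked for its likeness to the mean of all 8.

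Among the partners of CCT, the prefoldin and phosducin-like genes had 5 of 8 tested members higher with NAC and 0 lower. Of all tested genes 23.8% were higher and 20.8% lower. VBP1, a prefoldin subunit, was at 61.1 and 56.9 CPM in KO and 141 and 129 CPM with NAC, clearly apart (log2 fold change 1.19, adjusted p = 1.60458e-05 by edgeR's quasi-likelihood test). PFDN4 (1.14), PFDN5 (0.97), PFDN1 (0.44) and TXNDC9 (1.22), a phosducin-like protein that binds CCT, also rose. PFDN2 (0.41), PDCL (0.26) and PDCL3 (0.13) did not pass, and PFDN6, with 4 to 8 counts per library, was not tested. In the trend-removed fit 1 of these 8 was higher and 2 lower, beside 14% and 12.6% of all genes. The tubulin folding cofactors, which take tubulin on from CCT, had 4 of 6 higher (TBCE 0.77, TBCA 0.62, ARL2 0.50, TBCB 0.30) and TBCD lower (-0.46), and 3 higher and 1 lower with the trend removed.

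The client genes were called in both directions with NAC. Of 14 actin and tubulin genes 4 were higher, all of them alpha-tubulins (TUBA1A 0.83, TUBA4A 0.37, TUBA1C 0.31, TUBA1B 0.26), and 4 lower, all of them beta-tubulins (TUBB4A -0.82, TUBB6 -0.67, TUBB3 -0.31, TUBB -0.26), with 3 and 3 once the trend was removed. These shares can be read against the 23.8% of all tested genes higher and 20.8% lower, or 14% and 12.6% with the trend removed, and are not far from them. The actin genes ACTB (-0.18) and ACTG1 (-0.10) did not pass. Tubulin genes are alike in sequence, so reads that match several of them are left out of these counts. Of 9 other clients, 4 were lower, RPTOR of the mTOR complex (-1.03), the anaphase-promoting complex activator FZR1 (-0.56), CCNE1 (-0.31) and GNB1 (-0.31), and the deacetylase gene HDAC3 was higher (0.38). With the trend removed there were 3 higher and 2 lower.

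The other chaperone genes are given beside the same background. HSPD1 and HSPE1, the chaperonin and cochaperonin of mitochondria, were both higher with NAC (0.63 and 0.84), and neither was called with the trend removed. The chaperonin-like genes of primary cilia MKKS (0.60), BBS10 (0.70) and BBS12 (0.98) and the testis paralog CCT6B (1.63, from 15 to 71 counts per library) were higher in 4 of 4 tested, and 1 of 4 with the trend removed, while CCT8L2 had 0 counts in every library. In the cytosolic Hsp70 and Hsp90 system 5 of 14 were higher, HSPA8 (0.63), PTGES3 (0.69), AHSA1 (0.52), HSP90AA1 (0.36) and HSPA4 (0.28), and 2 lower, CDC37 (-0.43) and HSF1 (-0.67), the gene of the heat shock transcription factor. With the trend removed 1 was higher and 4 lower, where 14% and 12.6% of all genes were. HSPA1A and HSPA1B, near-identical copies whose counts are uncertain, did not pass.

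Leaving out NAC library 1 leaves a lone NAC library, so for the lists only median log2 fold changes are given here. They were 0.68 for the 8 prefoldin and phosducin-like genes, 0.32 for the 6 tubulin cofactors and -0.09 for the 14 actins and tubulins. The median over all tested genes was 0.012 in that fit. For the 9 other clients the median was -0.22, and for the 14 genes of the Hsp70 and Hsp90 system 0.18. The 2 mitochondrial chaperonin genes had a median of 0.68 and the 4 chaperonin-like genes one of 0.71. The pseudogenes CCT6P1 and CCT6P3 had 0 of 2 called with all libraries, and a median of 0.77 without NAC library 1. Of the genes that start back to back with a subunit gene, MRPL18, whose start is 210 bases from that of TCP1, was higher with NAC (0.49), as was COMMD1, 69 bases from CCT4 (0.57), and TSACC, 234 bases from CCT3, was not called (0.36). Without NAC library 1 the median of these 3 was 0.48, and with the trend removed none was called.

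At 5% O2 fewer of these genes were called, beside 3.68% of all tested genes higher and 4.13% lower. Among the tubulins TUBA1A (0.81), TUBB6 (0.45), TUBA1C (0.36) and TUBA1B (0.35) were higher and TUBB4A (-0.53) lower. TUBB6 thus rose at 5% O2, from 216 and 218 CPM in KO to 294 and 299 CPM, and fell with NAC, to 134 and 138 CPM. It was lower with NAC than at 5% O2 by the direct test (log2 fold change -1.12, adjusted p = 2.96043e-05 by edgeR's quasi-likelihood test). Without NAC library 1 the log2 fold change of TUBB6 was -1.11. VBP1 (0.39), TBCA (0.39), HSPE1 (0.53), HSPA8 (0.38) and PTGES3 (0.42) were higher and VHL (-0.59) lower. With the trend removed, 3 of 14 actins and tubulins were called, all higher, and 0 in each of the other lists. In that fit 1.1% of genes were higher and 0.426% lower at 5% O2. In KO against WT 1 of the 62 tested genes of these lists was called, a share near the 1.34% higher and 0.622% lower of all tested genes. This was VHL, a tumour suppressor folded by CCT, which was at 19.4 and 23.8 CPM in WT and 33.9 and 32.8 CPM in KO (log2 fold change 0.63, adjusted p = 0.0357).

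**Figure D5:**
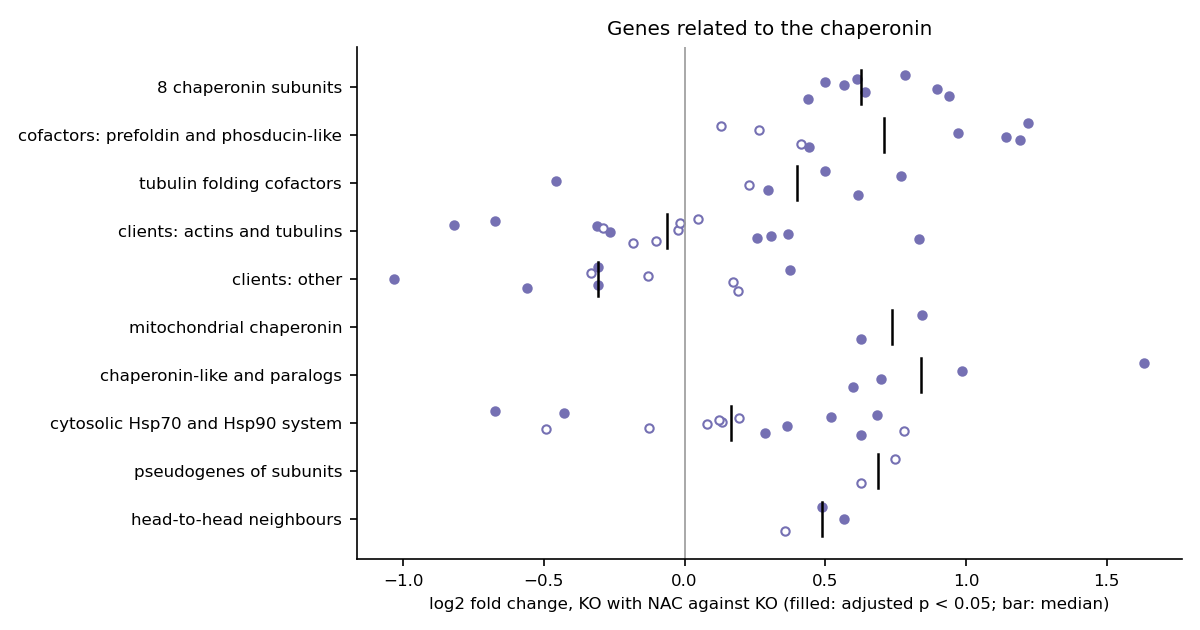
Log2 fold change of KO with NAC against KO for the 8 subunits and 9 lists of related genes; each dot is a gene, filled where the adjusted p is under 0.05, and black bars are medians. The subunits lie from 0.44 to 0.94, whereas the client lists spread over both sides of 0.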

How the data were processed

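RNA of WA26 cells was made into libraries with a TruSeq RNA kit, and the authors used HISAT2 for alignment to hg38 after trimming and featureCounts, at its defaults, for counting per gene. The submitters' processing notes also name FastQC 0.11.9. The annotation used for counting is not given in the sources used here. The deposited table gives raw read counts, 1 column per library. The labels describe 12 samples, of which 8 libraries in 4 groups of 2 were analysed. For its oxygen comparison the paper speaks of biological replicates, 2 in each group. Nothing in the labels says that replicates came from separate cultures. The p-values therefore measure the spread between these libraries, which may be partly technical. Within groups the replicates differed by more than counting noise (chi-square per degree of freedom 9.59 to 31.2).

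Genes were filtered with filterByExpr (minimum count 10), scaled by TMM and tested, 2-sided, in edgeR 4.0.16 (R 4.3.3) by quasi-likelihood, with 1 term per group, all 8 libraries, 4 residual degrees of freedom and no block. The biological coefficient of variation was 13.7%. P-values were adjusted by Benjamini-Hochberg across all 15916 tested genes, and called means an adjusted p under 0.05. RPKM was computed from the length of the canonical GENCODE 44 transcript, which need not be the one the cells use. GC content and length trends were removed per library with mgcv 1.9.3 through offsets. On counts simulated for KO with NAC against KO over 15680 tested genes, 75 of 100 genes changed by 1 on the log2 scale and 89 of 100 changed by 2 were called, with 8 unchanged genes called. Only these genes were changed and no GC trend was included, whereas the real comparison had 23.8% of genes called higher and 20.8% lower. The simulated rates need not hold for it.

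Alternatives were DESeq2 1.42.0, RLE and upper quartile scaling, 2 other filters, a fit restricted to the libraries compared, a replicate block, the trend removal, the criteria of the study and leaving out each library. The members, lists and alternatives were chosen with earlier results of these data known. Named genes are the 8 members, the genes of the lists, UBQLN1, and the 5 genes outside the members most correlated with their mean log2 CPM (prior count 2). Lists were described by counts and medians, with no test of a list. For the lists, the trend removal and the fit without NAC library 1 were chosen after seeing the data. Promoters came from RefSeq on GRCh38.p14.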

Additional observations from a re-analysis of the deposited data

How the results depend on the processing

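With 2 libraries per group and 4 residual degrees of freedom the precision is limited, and leaving out 1 library leaves a lone library that is assumed to vary like the other groups. The share of all genes called moved with the setting too, so a changed count need not be particular to the members. In KO against WT, 0.622% of genes were lower in the main fit. The share was 1.88% with DESeq2, 2.22% with the filter of at least 1 count and 2.49% with only the libraries compared. At 5% O2 against KO, 3.68% were higher in the main fit and 9.53% with only the libraries compared. In KO against WT, DESeq2, the filter of at least 1 count in 1 library and the fit of only the libraries compared each called 3 members lower, and leaving out each library gave 0 to 3. With NAC against KO, taking out the length and GC trend left 5 members higher and the criteria of the study (a log2 fold change beyond 1 either way and an unadjusted p under 0.05) left 0, while every leave-one-out fit gave 8. At 5% O2 against KO there were 8 in the fit of only the libraries compared, 0 with the trend removed, 0 by the criteria of the study and 0 to 7 when each library was left out. For NAC against 5% O2 these were 3, 3 and 0, and 1 to 7 without each library. For NAC against WT, 4 were higher with the trend removed and 0 by the criteria of the study, and 6 to 8 when each library was left out. For single members, 678 of 768 alternative fits gave the same direction and side of the threshold, 49 lost the call, 27 gained one and 14 changed direction. With the trend removed the estimates that changed direction were CCT6A at 0.0017 in KO against WT, TCP1 at -0.058 with NAC against KO, TCP1 at -0.072, CCT2 at -0.026, CCT6A at -0.019 and CCT8 at -0.011 with NAC against 5% O2, and CCT4 at -0.062 at 5% O2 against WT. TCP1 in KO against WT was also at -0.016 with upper quartile scaling. When each library was left out, TCP1 ran from -0.066 to 0.091 and CCT6A from -0.17 to 0.00045 in KO against WT, and at 5% O2 against WT CCT4 ran from -0.015 to 0.10, CCT5 from -0.0097 to 0.20 and CCT7 from -0.0022 to 0.083. Of these estimates, TCP1 with NAC against KO and CCT8 with NAC against 5% O2 had been called, and the others had not. The causes were not tested.

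For the lists of related genes with the trend removed, NAC against KO gave 1 prefoldin or phosducin-like gene higher and 2 lower, 3 other clients higher and 2 lower, 0 mitochondrial chaperonin genes, 1 chaperonin-like gene and 0 head-to-head neighbours higher, and 1 gene of the Hsp70 and Hsp90 system higher and 4 lower. At 5% O2 it gave 0 higher for the prefoldin, tubulin cofactor, mitochondrial and Hsp70 and Hsp90 lists and 0 lower for both client lists. The shares of all genes there were 1.1% higher and 0.426% lower. Without NAC library 1, the pseudogenes had a median log2 fold change of 0.77 with NAC against KO.

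Replicate numbers did not pair the samples: the correlations across genes of the difference between libraries 1 and 2 ran from -0.023 to 0.082 between groups. With a replicate block the members higher were 8 with NAC against KO, 5 at 5% O2 against KO, 6 with NAC against 5% O2 and 8 with NAC against WT, and 0 were lower in KO against WT. The block changed 1 call of a member, CCT6A in NAC against 5% O2 (0.23, adjusted p = 0.0473 by edgeR's quasi-likelihood test).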
